A study of Mus musculus with 17 samples.

Results

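Complement is a cascade of plasma and membrane proteins, and 8 of its genes were followed here out of 55450 genes in the bulk expression table. They were chosen by name, with earlier results of these data known. They are the classical pathway proteases C1ra and C1s1, the components C4b and C3, the alternative pathway protease Cfb, and the regulators Serping1, Cd55 and Cd59a. The samples were cell lines grown from tumor-bearing organs of 10 female FVB/NJ mice aged 10 to 12 weeks that carried MMTV-PyMT, a transgene in which a mammary tumor virus promoter drives the polyoma middle T oncogene in the mammary epithelium. Bulk RNA-seq covered 14 libraries in 7 groups of 2: the primary tumor of the mammary fat pad (MFP), and CD44low and CD44high cells from lung, from bone marrow (BM) and from lymph nodes (LN). Single-cell RNA-seq covered 3 libraries, 1 each of lung CD44low (lungL), lung CD44high (lungH) and LN CD44high cells (lymphH). No line received a drug or other agent, and all were kept in culture for about a month. The study sorted on CD44 and EpCAM to remove fibroblasts and used PCR to detect the PyMT antigen in the isolates. Its authors also raise the possibility that some lung CD44low single cells were cancer-associated fibroblasts. Whether host cells of the organs remained was not tested here. Each library of a bulk group was a separate clonal isolate from a different mouse, and each isolate is 1 clone.

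In the classical pathway, the proteases C1r and C1s sit on C1q, are activated when it binds a surface, and cut C4 and C2 into a convertase. The convertase cuts C3, whose larger fragment marks surfaces for uptake, and factor B, encoded by Cfb, pairs with that fragment in the amplifying alternative pathway. C1 inhibitor, encoded by Serping1, blocks C1r and C1s, while CD55 dissociates the convertases and CD59 stops the assembly of the membrane attack complex on a cell's own membrane. The liver is the main source of the plasma proteins, but epithelial cells, fibroblasts and macrophages also make several of them, and inflammatory cytokines raise C3 and factor B.

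The sort labels were checked against the RNA first. The labels describe all organ-derived cells as EpCAMhigh, and Epcam ranged from 315 to 941 TPM (transcript abundance scaled to transcript length and library total) outside lung. It was 0 in both lung CD44low libraries, and 0.23 and 0.86 TPM in the lung CD44high libraries. Cd44 RNA was not higher in the CD44high groups: it was 147 and 82.7 TPM in LN CD44low against 49 and 52.3 in LN CD44high cells, 43.8 and 74.9 against 50.5 and 49 in BM, and 12.2 and 21.6 against 22 and 12.1 in lung. Groups are named here as the labels name them, and surface protein was not measured in these files. Pearson correlations between the 2 libraries of a group were 0.908 to 0.98, lowest for BM CD44low cells. TPM keeps no record of depth, and the study's methods state only a minimum of 10 M reads per bulk library. In bulk cultures, fewer cells that express a gene and less RNA per cell cannot be told apart.

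The start regions are shown for members of 3 of the patterns described below: C1s1 and Cd59a, which were highest in lung lines, C3, which was highest in BM CD44high lines, and Cd55, which was highest in MFP. Of the 8 genes, 5 had an entry in the RefSeq promoter table (GRCm38.p6), and C4b, Cfb and Serping1 had none. The 250 bases before the start were searched on both strands for motifs of factors known to act on acute-phase and interferon genes. These were C/EBP (TTGCNNAA), STAT (TTCNNNGAA), AP-1 (TGANTCA), NF-kB (GGG and TTCC set 3 bases apart) and the interferon-stimulated response element ISRE (GAAA and GAAA set 2 bases apart). Capitals mark a match, and each sequence reads 5′ to 3′ on the gene's strand.
C3, chr17:57228137-57228386, minus strand: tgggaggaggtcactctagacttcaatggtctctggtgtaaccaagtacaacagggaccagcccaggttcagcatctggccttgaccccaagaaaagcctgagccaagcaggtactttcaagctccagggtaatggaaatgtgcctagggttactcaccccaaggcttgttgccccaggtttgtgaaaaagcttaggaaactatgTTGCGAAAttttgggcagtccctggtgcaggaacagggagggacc
C1s1, chr6:124542360-124542609, minus strand: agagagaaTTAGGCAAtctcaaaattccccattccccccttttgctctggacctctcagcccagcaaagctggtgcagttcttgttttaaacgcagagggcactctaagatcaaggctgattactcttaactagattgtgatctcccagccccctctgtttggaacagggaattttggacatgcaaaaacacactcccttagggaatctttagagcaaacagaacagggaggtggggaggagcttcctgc
Cd59a, chr2:104095551-104095800, plus strand: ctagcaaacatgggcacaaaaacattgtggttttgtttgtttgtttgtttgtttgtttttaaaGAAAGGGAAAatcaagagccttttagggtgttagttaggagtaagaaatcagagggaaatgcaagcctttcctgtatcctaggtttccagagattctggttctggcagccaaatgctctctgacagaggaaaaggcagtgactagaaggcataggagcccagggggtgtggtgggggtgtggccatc
Cd55, chr1:130462745-130462994, minus strand: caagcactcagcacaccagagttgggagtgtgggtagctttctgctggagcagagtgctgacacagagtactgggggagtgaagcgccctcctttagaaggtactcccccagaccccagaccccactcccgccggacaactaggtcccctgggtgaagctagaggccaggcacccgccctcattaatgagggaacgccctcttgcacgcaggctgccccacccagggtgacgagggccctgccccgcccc
C3 held a C/EBP match from 45 to 38 bases before the start, and C1s1 held 1 on the other strand from 242 to 235 bases before it, while the window of its second listed start, at 124542321, held none. Cd59a held an ISRE match from 187 to 178 bases before the start. No match overlapped another, and neither Cd55 nor C1ra held any. Among all 32851 windows of the same length, 9.56% held the C/EBP letters, 2.98% the ISRE letters, 4.65% the NF-kB letters, 7.02% the STAT letters and 6.75% the AP-1 letters. These matches describe letters only.

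The 8 genes fell into 4 patterns across the bulk groups. C1ra, C1s1 and Cd59a were highest in both lung groups, C4b and Serping1 in lung CD44low cells, C3 and Cfb in BM CD44high cells, and Cd55 in MFP. All 8 passed the filter on low values, which asked for 1 TPM or more in 2 or more of the 14 libraries. Serping1 and C4b passed it only through lung CD44low cells and Cd55 only through MFP, so a comparison of that group with another was decided by the filter for them. Their levels are given below without a p there. The text below gives both libraries of each group, replicate 1 first.

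C1ra (ENSMUSG00000055172.10, chromosome 6 of mm10 from 124512405 to 124523443) encodes C1r, the first protease of the classical pathway. It was 153 and 129 TPM in lung CD44low and 112 and 145 TPM in lung CD44high cells. The 2 lung groups overlapped, and all 4 lung libraries were far above the rest. C1ra was 5.18 and 6.01 TPM in BM CD44high, 1.73 and 2.18 in BM CD44low, 1.69 and 1.33 in LN CD44high, 0.64 and 1 in LN CD44low, and 0.33 and 0.16 TPM in MFP cells. No neighbours in this order overlapped apart from the lung groups.

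C1s1 (ENSMUSG00000038521.17, chromosome 6 from 124530345 to 124542359) lies next to C1ra on the opposite strand and encodes C1s, the protease that cuts C4 and C2. Its levels were 148 and 134 TPM in lung CD44low and 31.9 and 57 TPM in lung CD44high cells. Unlike those of C1ra, these groups did not overlap. Outside lung the levels were 2.54 and 3.36 TPM in BM CD44high, 1.2 and 1.36 in LN CD44high, 1.01 and 0.76 in BM CD44low, 0.07 and 0.37 in LN CD44low, and 0.05 and 0 TPM in MFP cells. An antisense gene, Gm16567, overlaps C1s1, and the library kit does not mark strand. Gm16567 itself was between 0 and 0.22 TPM in all libraries.

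C4b (ENSMUSG00000073418.4, chromosome 17 from 34728380 to 34743882) encodes C4, the substrate of C1s. It was 34.6 and 62.1 TPM in lung CD44low cells and below 1 TPM in each of the other 12 libraries, with 0.95 and 0.63 TPM in lung CD44high and 0.88 and 0.27 TPM in BM CD44high cells. Serping1 (ENSMUSG00000023224.12, chromosome 2 from 84765387 to 84775444), whose product inhibits C1r and C1s, was 35.6 and 32.4 TPM in lung CD44low cells. Beyond these, only the first library of BM CD44low (0.05 TPM) and the first of BM CD44high cells (0.08 TPM) had any Serping1, and it was listed at 0 in the other 10.

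C3 (ENSMUSG00000024164.15, chromosome 17 from 57203970 to 57228136) is the component on which all activation routes converge, and it was detected in every library. It was 98.7 and 58.4 TPM in BM CD44high, 30.5 and 27.2 in LN CD44high, 19.6 and 16.5 in BM CD44low, 15.2 and 18.4 in lung CD44low, 19.2 and 10.6 in MFP, 5.02 and 3.68 in LN CD44low, and 5.96 and 1.89 TPM in lung CD44high cells. BM CD44high stood above LN CD44high, and LN CD44high above BM CD44low cells, without overlap. BM CD44low, lung CD44low and MFP cells overlapped as neighbours, as did LN CD44low and lung CD44high cells.

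Cfb (ENSMUSG00000090231.10, chromosome 17 from 34856374 to 34862518), the gene of factor B, was 17.5 and 7.96 TPM in BM CD44high, 3.07 and 2.27 in BM CD44low, and 2.14 and 1.05 TPM in LN CD44high cells. The remaining 8 libraries lay between 0.14 and 0.76 TPM and overlapped. A readthrough gene that shares exons with Cfb, Gm20547, was listed at 0 in all 14 libraries.

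Cd55 (ENSMUSG00000026399.12, chromosome 1 from 130439027 to 130462744), the decay-accelerating factor, was 10.5 and 16.7 TPM in MFP and 0.52 and 0.69 TPM in lung CD44low cells. It was 0.07 TPM in the first BM CD44low library and listed at 0 in the other 9. The antisense gene Gm16083, which overlaps the start of Cd55, was at most 0.09 TPM. Cd59a (ENSMUSG00000032679.12, chromosome 2 from 104095801 to 104115354) was 25.2 and 28.3 TPM in lung CD44low, 5.31 and 13.4 in lung CD44high, and 1 to 2.73 TPM in lines from LN and BM. MFP, where Cd55 was highest, had Cd59a at 0 in both libraries.

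**Figure D1:**
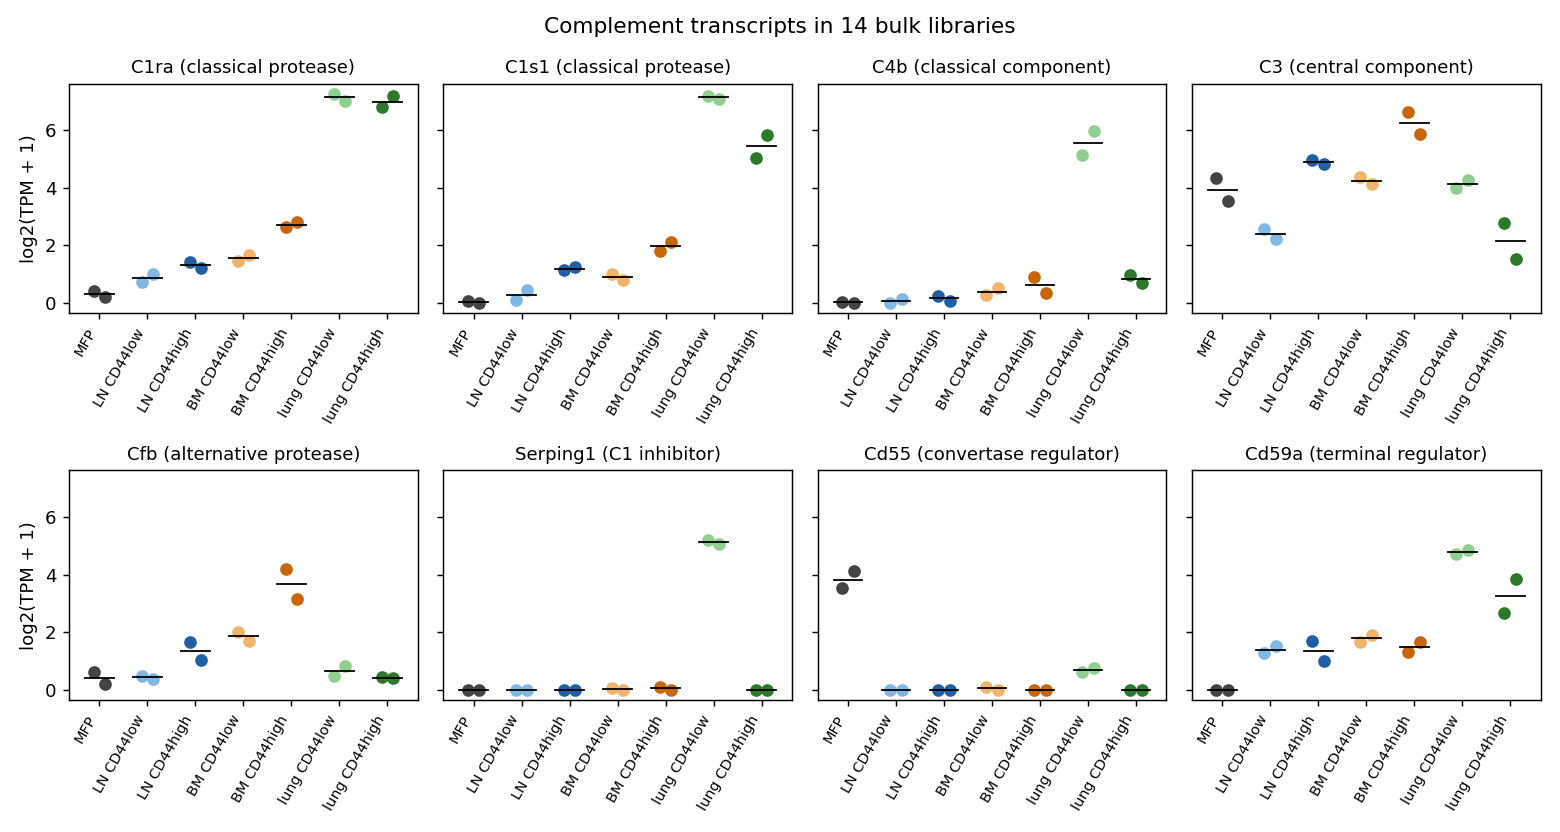
Level of each complement gene in the 14 bulk libraries, as log2(TPM + 1), with 1 point per library and a line at the mean of the 2 libraries of a group. C1ra, C1s1 and Cd59a are highest in the lung groups, C4b and Serping1 in lung CD44low cells, C3 and Cfb in BM CD44high cells and Cd55 in MFP.

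Each organ-derived group was set against MFP, to ask how lines from metastatic sites differed from the primary tumor. A gene passed the test when its log2 fold change, on the log2(TPM + 1) scale, was over 2 in size and its Benjamini-Hochberg adjusted p from limma was under 0.05 over all 15348 genes tested. Adding 1 to TPM understates the change of low genes, and no fold change is given where a group is listed at 0 in both libraries. With 2 libraries a side, no exact permutation p can be lower than 0.333, so p-values come from limma, which pools the spread over all genes and groups. For genes near 0 in most groups (Serping1, C4b, Cd55) most of that spread comes from libraries at or near 0.

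In LN lines, no gene passed apart from Cd55, which the filter decided, in CD44low and CD44high cells alike. Of all genes tested, 2.72% and 3.68% were lower in these comparisons and 2.07% and 2.44% higher. Cd55 was listed at 0 in all 4 LN libraries. The other genes of the list stayed under the fold threshold. C3 differed from MFP by -1.53 (SE 0.44, adjusted p = 0.044) in LN CD44low and by 0.96 (SE 0.44, adjusted p = 0.143) in LN CD44high cells. C1s1 and C1ra differed by 1.15 (SE 0.31, adjusted p = 0.0233) and 1.01 (SE 0.26, adjusted p = 0.0179) in LN CD44high cells, at levels of 1 to 2 TPM. Without the fold threshold, 3 genes in LN CD44low and 4 in LN CD44high cells had an adjusted p under 0.05, Cd55 among them in both, beside 14% and 23.8% of all genes.

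In BM CD44high lines, C3, C1ra and Cfb were higher than in MFP, 3 of the 8 genes. Cd55, which the filter decided, was listed at 0, and 3.64% of all genes tested were higher and 4.03% lower. C3 rose by 2.33 (SE 0.44, adjusted p = 0.00369), C1ra by 2.41 (SE 0.26, adjusted p = 0.000125) and Cfb by 3.28 (SE 0.36, adjusted p = 0.000151) on the log2 scale. C1s1 was just under the fold threshold at 1.94 (SE 0.31, adjusted p = 0.00151). The call for C3 was lost without the second MFP library (1.93) or without the first BM CD44high library (1.96), and C1s1 passed at 2.09 without the latter. In BM CD44low cells no gene passed apart from Cd55 (0.07 and 0 TPM), where 3.17% of all genes were lower and 3.99% higher. C1ra and Cfb differed there by 1.25 (adjusted p = 0.00665) and 1.46 (adjusted p = 0.0165). Without the fold threshold, 4 genes in BM CD44low and 6 in BM CD44high cells had an adjusted p under 0.05, Cd55 among them in both, beside 23.2% and 27.0% of all genes.

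In lung CD44low lines, C1s1, C1ra and Cd59a were higher than in MFP, 3 of the 8 genes, and C4b, Serping1 and Cd55, which the filter decided, also passed. Over all genes tested, 11.2% were higher and 7.62% lower. C1s1 rose by 7.11 (SE 0.31, adjusted p = 7.11e-08) and C1ra by 6.83 (SE 0.26, adjusted p = 2.43e-08) on the log2 scale. Cd59a was listed at 0 in both MFP libraries (adjusted p = 6.54e-06). C3 and Cfb differed from MFP by 0.21 (95% interval -0.76 to 1.19) and 0.23 (95% interval -0.57 to 1.04).

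In lung CD44high lines, C1s1, C1ra and Cd59a were higher than in MFP, 3 of the 8 genes, and Cd55, which the filter decided, was listed at 0. Of all genes tested, 5.42% were higher and 8.03% lower. C1ra rose by 6.69 (SE 0.26, adjusted p = 1.07e-07) and C1s1 by 5.41 (SE 0.31, adjusted p = 1.12e-06), and the adjusted p was 0.000158 for Cd59a. C4b differed by 0.81 (SE 0.30, adjusted p = 0.0588), and C3 by -1.77 (SE 0.44, adjusted p = 0.0101). C3 passed as lower without the second MFP library or without the first lung CD44high library. Without the fold threshold the count was 6 in lung CD44low cells, with C4b, Serping1 and Cd55 among them, and 5 in lung CD44high cells, with Cd55 among them, beside 45.0% and 36.1% of all genes. All of these comparisons share the same 2 MFP libraries. The median difference of the 8 genes from MFP, those decided by the filter included, was 4.96 in lung CD44low and 0.41 in lung CD44high cells, where the median over all genes was 0 and -0.04. It was 1.72 in BM CD44high cells, where the median over all genes was -0.34, and 0.95 in LN CD44high cells, where that median was -0.30. It was 0.04 in LN CD44low and 0.63 in BM CD44low cells, beside -0.18 and -0.04 over all genes. The median in lung CD44low cells rests on Cd59a and Serping1, both listed at 0 in MFP, and so depends on the 1 added to TPM. As the filter decided some of the 8 genes, these medians are no test of them.

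CD44high and CD44low cells were then compared within each organ, since the study sorted on CD44 to separate subpopulations. In LN and BM, C3 and Cfb had their higher level in CD44high cells, but no gene of the 8 passed the test, where 0.117% of all genes tested were higher and 0.0912% lower in LN, and 0.0521% each way in BM. None of the 8 had an adjusted p under 0.05 at any fold, beside 0.378% and 0.150% of all genes. At an unadjusted p under 0.05 and the same fold threshold, C3 passed in each organ, as did 0.332% of all genes higher in LN and 0.248% in BM. C3 differed by 2.49 (SE 0.44, adjusted p = 0.0535) in LN and by 2.02 (SE 0.44, adjusted p = 0.225) in BM, with both CD44high libraries above both CD44low libraries in each organ. Cfb differed by 0.92 (SE 0.36, adjusted p = 0.418) in LN and by 1.82 (SE 0.36, adjusted p = 0.152) in BM. In LN, C3 passed under 6 alternatives, among them median-ratio scaling (2.71) and the omission of either lung CD44high library. In BM it passed at 2.14 without the first CD44low library.

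In lung, C4b and Serping1 were the genes that passed, both lower in CD44high than in CD44low cells, and the filter decided both. None of the 8 was higher, where 8.80% of all genes tested were lower and 2.49% higher. The difference of C4b was -4.73, and Serping1 was listed at 0 in both CD44high libraries. C3, C1s1 and Cd59a also had their lower level in CD44high cells without passing the fold threshold: -1.98 (SE 0.44, adjusted p = 0.0071), -1.70 (SE 0.31, adjusted p = 0.00244) and -1.54 (SE 0.39, adjusted p = 0.0148). C1s1 and Cd59a passed without the second lung CD44high library, and C3 passed without the first lung CD44low or the first lung CD44high library, so the number of genes that passed reached 4. At any fold, 6 had an adjusted p under 0.05, beside 30.7% of all genes. For C1ra the difference was -0.14 (95% interval -0.72 to 0.43), the smallest of the 5 genes that were high in lung CD44low cells.

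The difference between organs was tested with an interaction contrast, the CD44 difference in lung minus that in LN or in BM. Against LN, C3 and C1s1 passed, both lower, and so did C4b and Serping1, which the filter decided, beside 7.0% of all genes tested lower and 3.39% higher. C3 had an interaction of -4.47 (SE 0.62, adjusted p = 0.000674), C1s1 of -2.61 (SE 0.44, adjusted p = 0.00233) and C4b of -4.83. Against BM, C3, C1s1 and Cfb passed, all lower, again with C4b and Serping1, beside 5.89% of all genes lower and 2.77% higher. C3 had -4.00 (SE 0.62, adjusted p = 0.00148), C1s1 -2.76 (SE 0.44, adjusted p = 0.00177), Cfb -2.04 (SE 0.51, adjusted p = 0.0231) and C4b -4.97. For C3 and C1s1 the differences were above 0 in LN and BM and below 0 in lung, although none of them passed within an organ. At any fold, the counts with an adjusted p under 0.05 were 4 and 6, beside 19.5% and 15.3% of all genes. Both contrasts share the lung libraries. The interaction of Cfb was lost under 8 alternatives, 5 of which left out a library, at differences from -2.67 to -1.51.

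**Figure D2:**
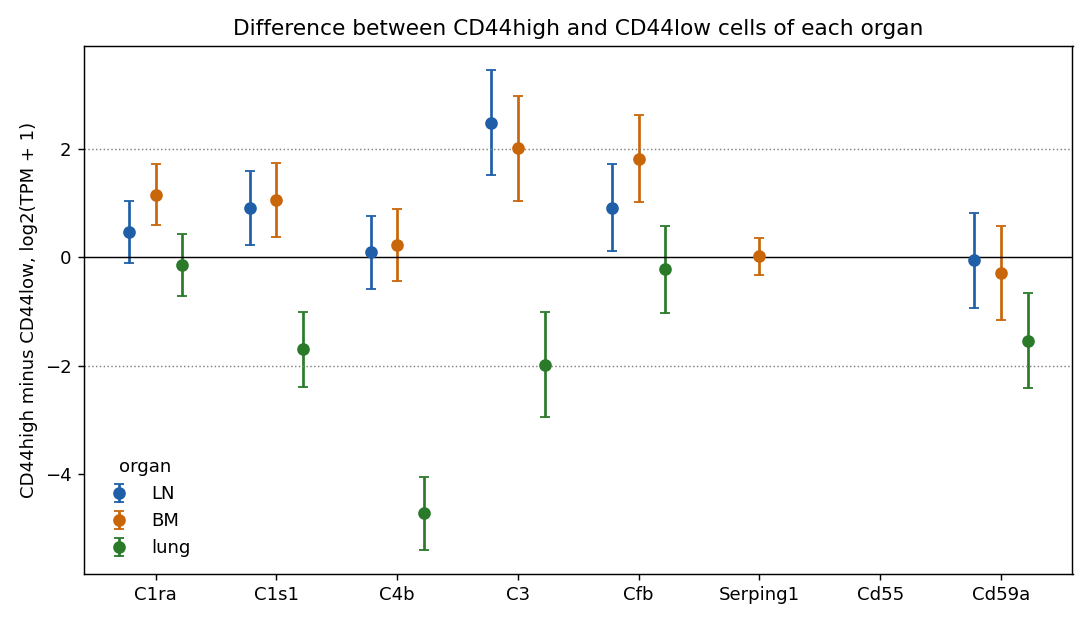
Difference between CD44high and CD44low cells for each complement gene in LN, BM and lung, in log2(TPM + 1), with 95% intervals from limma and dotted lines at the fold threshold of 2 in either direction. C3 lies above 0 in LN and BM and below 0 in lung, C4b is lowest in lung at -4.73, and differences that involve a group listed at 0 (Serping1 in LN and lung, Cd55 throughout) are not drawn.

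Lung lines of both sorts were also set against the LN and BM lines together. C1s1, C1ra and Cd59a were higher in lung, as were C4b and Serping1, which the filter decided, beside 7.13% of all genes tested. None was lower, beside 5.54%. C1ra was higher by 5.46 (SE 0.16, adjusted p = 5.66e-09), C1s1 by 5.21 (SE 0.19, adjusted p = 1.71e-08) and Cd59a by 2.52 (SE 0.24, adjusted p = 1.37e-05). For C4b and Serping1 the average over both lung groups came from lung CD44low cells. C3 and Cfb had -1.30 each (SE 0.27, adjusted p = 0.00204 for C3, and SE 0.22, adjusted p = 0.000633 for Cfb), under the fold threshold. With no fold threshold all 8 had an adjusted p under 0.05, beside 59.9% of all genes. Between BM and LN lines none of the 8 passed, beside 0.345% of all genes higher and 0.0521% lower, and at an unadjusted p under 0.05 with the same fold threshold the count was also 0. With an adjusted p under 0.05 and no fold threshold it was 3, beside 1.81% of all genes. Cfb was nearest with 1.89 (SE 0.25, adjusted p = 0.00586), followed by C3 with 1.60 (SE 0.31, adjusted p = 0.0315) and C1ra with 1.05 (SE 0.18, adjusted p = 0.018). Cfb passed when the first LN CD44high or the second BM CD44high library was left out.

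Several of these genes have a near copy in the mouse genome, between which reads can be divided. Of the 31-base words in C4b transcripts, 48.3% also occur in C4a, 56.9% of those of C1ra occur in C1rb, and 33.5% of those of C1s1 in C1s2. For Cd55 and Cd55b the share was 11.2%, and for Cd59a and Cd59b 8.23%. The levels of C4b, C1ra and C1s1 are therefore uncertain by whatever was assigned to the copy. C4a was at most 1.12 TPM in any library, and Cd55b was listed at 0 throughout. C1s2 followed C1s1 with 16 and 17.4 TPM in lung CD44low and 4.27 and 5.69 TPM in lung CD44high cells, and at most 0.4 TPM elsewhere. C1rb was 4.43 and 4.68 TPM, then 3.13 and 6.68 TPM in the same groups, and Cd59b 10.5 and 9.4 TPM, then 1.66 and 1.48 TPM.

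Of 52 other complement genes, 16 were tested, 33 stayed under 1 TPM in every library and 13 passed the test in at least 1 comparison, as did 33.4% of all genes tested. Among the 18 initiating and activating genes, 6 were tested, of which 4 were higher in lung CD44low and 5 in lung CD44high cells than in MFP, where 11.2% and 5.42% of all genes were. C1rb, C1s2, Colec10 and Colec12 passed the filter only through lung groups, which decided those comparisons for all of the genes higher in lung but Masp1. Masp1, a protease of the lectin pathway, was 606 and 443 TPM in lung CD44high and 127 and 169 TPM in lung CD44low cells, against 0.89 to 10.9 TPM in LN and BM and 0.22 and 0.06 TPM in MFP. It was higher than in MFP by 8.83 (SE 0.38, adjusted p = 1.77e-07) in lung CD44high cells and also passed in both BM groups, by 2.60 in CD44low and 3.16 in CD44high cells (adjusted p = 0.000943 and 0.000252). Its CD44 difference ran opposite to that of C4b, whose contrasts the filter decided: the interaction of lung with LN was 2.24 (SE 0.53, adjusted p = 0.0157). Masp1 stayed under the fold threshold within lung and in the interaction with BM. The collectin Colec12, a scavenger receptor, was 152 and 217 TPM, then 79.6 and 76.8 TPM in lung CD44low and CD44high cells and at most 0.22 TPM elsewhere. Colec10, another collectin, was 8.52 and 12.8 TPM in lung CD44high and 0.53 and 0.77 TPM in lung CD44low cells, and it passed the filter only through the former. C2, the partner of C4 in the convertase, was 3.84 and 4.94 TPM in lung CD44low and 0.31 and 0.61 TPM in lung CD44high cells, a difference of -1.88 (SE 0.33, adjusted p = 0.00191) that stayed under the fold threshold. Its interactions passed, at -2.38 against LN (adjusted p = 0.00592) and -2.63 against BM (adjusted p = 0.00346).

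C1q, to which C1r and C1s bind, was not found with them: C1qa and C1qc were listed at 0 in all 14 libraries and C1qb was at most 0.24 TPM. The terminal genes were near 0 as well, since 1 of 7 was tested, C8g, which had its highest levels of 3.22 and 3.71 TPM in lung CD44low cells and passed in no comparison. None of the 8 receptor genes reached the filter.

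Among 19 other regulators, 9 were tested, and 5 were higher and 2 lower in lung CD44low cells than in MFP, beside 11.2% and 7.62% of all genes. All of the higher ones but Thbd passed the filter only through lung groups, which decided that comparison for them. C4bp, which binds C4 fragments, was 29.6 and 60.6 TPM in lung CD44low and 0.47 and 0.51 TPM in lung CD44high cells. Factor I, encoded by Cfi, was 4.7 and 6.27 TPM against 0 in both, and thrombomodulin, encoded by Thbd, 59.2 and 76.4 TPM against 0 in both (adjusted p = 3.26e-08 for Thbd). C4bp and Cfi passed the filter only through lung CD44low cells. Cd59b was also lower in lung CD44high than in lung CD44low cells (adjusted p = 1.53e-05). Of the 9 tested regulators, 5 were lower in that comparison, C4bp and Cfi among them, and none was higher, beside 8.80% and 2.49% of all genes. Clusterin, encoded by Clu, was lower than in MFP in all groups but LN CD44low cells, by 2.13 to 3.47 on the log2 scale, but its 2 MFP libraries were 1612 and 417 TPM. Susd4 was 7.03 and 3.18 TPM in MFP and lower in both lung groups (-2.52 and -2.11, adjusted p = 0.0031 and 0.00967). Cr1l, the mouse membrane regulator also known as Crry, was the evenly expressed regulator, with 25.8 to 104 TPM over all 14 libraries and no passed comparison.

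**Figure D3:**
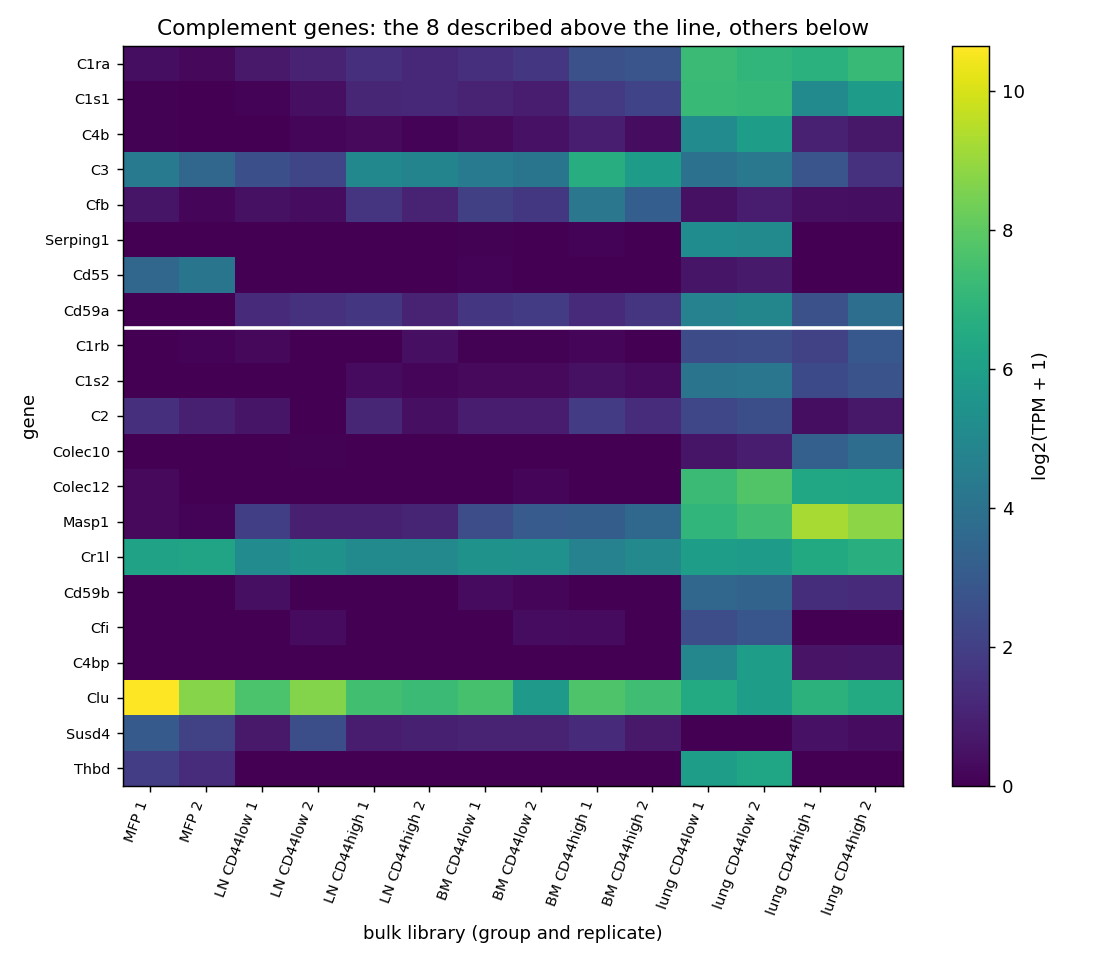
Level of the 8 complement genes (above the white line) and of 13 other complement genes (below it) in each bulk library, as log2(TPM + 1), from dark (0) to bright. Lung CD44low libraries are bright for C1ra, C1s1, C4b, Serping1, C4bp and Thbd, lung CD44high libraries keep C1ra and Masp1, and Cr1l is expressed in all libraries.

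Complement genes respond to cytokines of the interleukin-6 family, interleukin-1, tumor necrosis factor and interferons, and to C/EBP, STAT and NF-kB factors. Of 25 genes of these receptors and factors, 24 were tested and 13 passed in at least 1 comparison, where 33.4% of all genes did. In lung CD44low cells 6 were higher than in MFP (Osmr, Lifr, Il6st, Ifnar2, Cebpb and Cebpd) and 2 lower (Nfkb1 and Nfkb2), beside 11.2% and 7.62% of all genes. Cebpd was 259 and 199 TPM in lung CD44low cells and 0.44 to 30.9 TPM in the other 12 libraries, and Cebpb was 99.9 and 545 TPM there and 1.86 to 20.8 TPM elsewhere. These C/EBP genes share with C4b and Serping1 their highest level in lung CD44low cells and were lower in lung CD44high cells, by 5.60 (SE 0.78, adjusted p = 0.000463) and 4.93 (SE 0.81, adjusted p = 0.00129) on the log2 scale. In single cells, described below, Cebpd was 2.23 per 10000 in lungL and 1.23 in lungH, but Cebpb was higher in lungH, at 4.64 (4.36 to 4.93) against 2.84 (2.62 to 3.07). Osmr, the oncostatin M receptor, was 336 and 419 TPM in lung CD44low and 209 and 177 TPM in lung CD44high cells, against 2.8 to 17.2 TPM elsewhere, the order seen for C1s1. Cebpd also passed in BM CD44low cells, where its libraries were 2.91 and 30.9 TPM, and Lifr in BM CD44high cells, by 2.07 (SE 0.32, adjusted p = 0.00124).

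Il6ra was highest in lung CD44high cells (105 and 79.8 TPM) and higher there than in lung CD44low cells (7.13 and 10 TPM, adjusted p = 0.000193). Lifr and Il1r1 were lower in lung CD44high than in lung CD44low cells (adjusted p = 0.000404 and 0.000117). Against LN and BM, 8 of the 24 tested genes were higher in the lung lines and none lower, beside 7.13% and 5.54% of all genes. Among the 8 were Il6st, Tnfrsf1b, Ifnar1 and Ifnar2, by 3.15, 4.52, 2.12 and 2.20, each with an adjusted p of at most 0.000354. Tnfrsf1b, the second tumor necrosis factor receptor, was also 15.2 and 12.7 TPM in MFP and lower than that in all LN and BM groups. Nfkbiz, a cofactor for acute-phase genes, was 57.5 and 40.4 TPM in BM CD44high and 24.7 and 47.6 TPM in lung CD44low cells, which overlapped, and its interaction of lung with BM passed at -3.08 (SE 0.61, adjusted p = 0.00703). Whether any of these genes acts on the complement genes was not tested.

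Markers of other cell types moved with the lung pattern. The summed level of 12 fibroblast markers was 4876 and 5309 TPM in lung CD44low, 216 and 103 TPM in lung CD44high, 7.46 to 46.2 TPM in LN and BM and 1.37 and 0.55 TPM in MFP cells. All 10 of the tested fibroblast markers were higher in lung CD44low cells than in MFP, beside 11.2% of all genes, led by Dcn at 4091 and 4315 TPM. The filter decided this for Col1a2, Lum, Thy1 and Fbln1, which passed it only through lung CD44low cells, and for Col3a1, which passed it only through lung groups. Fap and Dpt were at most 0.07 TPM in every library. The summed level of 12 epithelial markers was 2.43 and 2.67 TPM in lung CD44low and 16 and 87.7 TPM in lung CD44high cells, against 2269 to 8922 TPM in the other 10 libraries. The 8 macrophage markers summed to 39.2 and 39.1 TPM in lung CD44low, 10.3 and 23.4 TPM in lung CD44high and 2.28 to 23.4 TPM in the other libraries, mostly from Lyz2 in lung. Adgre1 was listed at 0 in every library and Ptprc was at most 0.2 TPM, and the 6 endothelial markers summed to at most 0.28 TPM. The part of these cell type markers in the complement differences was not tested. In lung CD44high cells, 4 of the 10 tested fibroblast markers (Dcn, Pdgfra, Pdgfrb and Postn) were higher than in MFP, beside 5.42% of all genes.

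**Figure D4:**
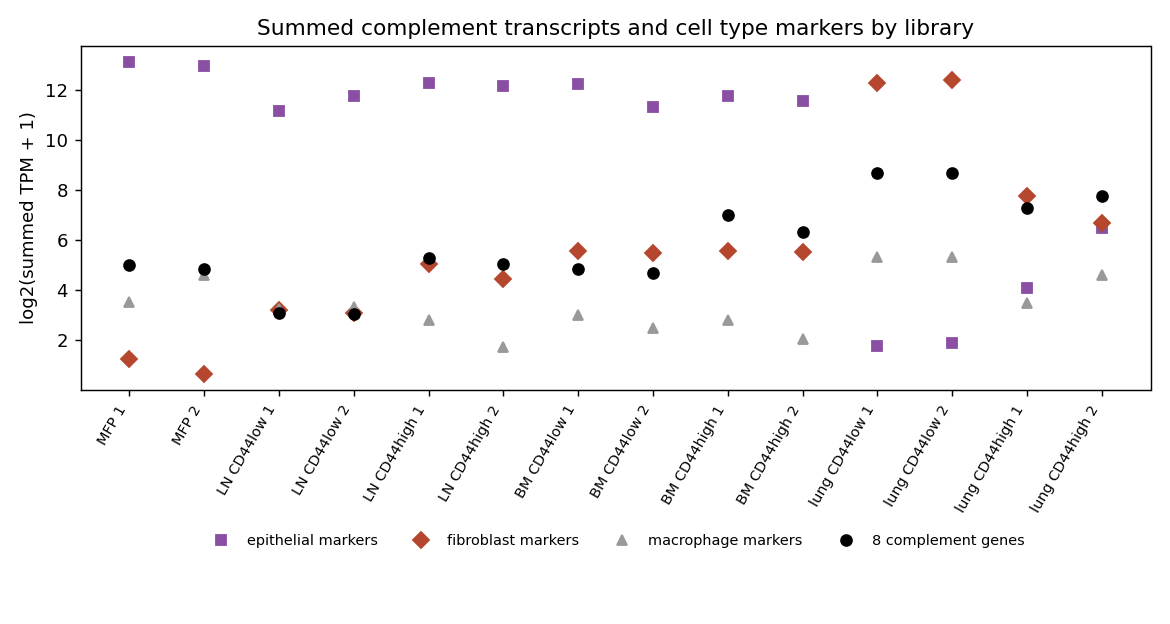
Summed TPM of the 8 complement genes and of the epithelial, fibroblast and macrophage marker lists in each bulk library, as log2(summed TPM + 1). The complement sum is highest in lung CD44low libraries (412 and 406 TPM), where fibroblast markers are also highest and epithelial markers lowest.

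Genes with the most similar pattern were sought for each member over the 14 libraries by Pearson's r of log2(TPM + 1), which describes groups of like libraries rather than independent samples. C3 was nearest to Stx6 (0.90), Il1rn (0.89) and Lcn2 (0.84), and Lcn2, the acute-phase protein lipocalin 2, was 12527 and 6172 TPM in BM CD44high cells. Cfb was near to Krt79 and Slc5a1 (0.96 each). C1s1 was nearest to Fam13c (0.99), C1ra (0.98) and C1s2 (0.98), and C1ra to Irak2, Mmp19 and C1s1 (0.98 each). C4b was nearest to Msl3l2, Arnt2 and Dgkg (0.99 each), and Serping1 to Pdk4, AC148019.2 and Cavin3 (each at least 0.9998), all of them high in lung CD44low cells. Cd55 was nearest to Acer2, 9330182L06Rik and Tmem30b (0.99 each) and Cd59a to Tspan6, Timp3 and Sspn (0.96 each). Among the members, r was 0.98 for C4b with Serping1 and 0.82 for C3 with Cfb. For genes that are high in 1 group and near 0 elsewhere, r rests on the 2 libraries of that group.

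Single cells were examined to see in which libraries and how many cells the transcripts were found. Cells with more than 250 genes and under 10% mitochondrial counts were kept, 348 in lungL, 1236 in lungH and 2562 in lymphH, with median totals of 4011, 557 and 585 counts per cell. With 1 library of each kind there is no test, and the intervals cover counting error only. Counts were summed over cells and given per 10000. Doublets were not removed, and the column names of the 3 libraries shared no cell name.

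C1s1, C1ra and Cd59a carried most of the signal and were found in both lung libraries. C1s1 had 177 counts in lungL (0.797 per 10000, 95% interval 0.684 to 0.924), 206 in lungH (0.932, 0.809 to 1.07) and 7 in lymphH (0.0132, 0.0053 to 0.0273). C1ra had 52 counts in lungL (0.234, 0.175 to 0.307), 93 in lungH (0.421, 0.340 to 0.515) and 2 in lymphH. Cd59a had 200 counts in lungL (0.901, 0.780 to 1.03), 46 in lungH (0.208, 0.152 to 0.278) and 19 in lymphH (0.0359, 0.0216 to 0.0561). For Cd59a the intervals of all 3 libraries stood apart in the order of the bulk groups. For C1s1 the intervals of lungL and lungH overlapped, while bulk lung CD44low libraries were above lung CD44high libraries, and for C1ra lungH was above lungL. As a mean of per-cell values, C1ra was 0.293 in lungH, inside the lungL interval.

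The other members gave few counts. C3 had 11 counts in lungL, 7 in lungH and 5 in lymphH, although it was detected in all bulk libraries. Per 10000, C3 was 0.0495 (0.0247 to 0.0886) in lungL and 0.0095 (0.0031 to 0.0221) in lymphH. This reverses the bulk order, where LN CD44high was above lung CD44low cells, and rests on few counts. Cfb had 0, 5 and 12 counts, and a count of 0 in lungL allows up to 0.0135 per 10000 (3 counts). Serping1 had 6 counts and Cd55 had 5, all in lungL, and C4b had 1, in lungL. Serping1 and C4b were thus found only in the library whose bulk counterpart was highest, with 7 counts between them against 200 for Cd59a, whose bulk level in lung CD44low cells was of the same order. The single-cell kit reads the 3' ends of transcripts and the bulk kit the whole transcript, and the part of this in the difference was not tested. Summed over the 8 genes, the level was 2.04 per 10000 in lungL, 1.61 in lungH and 0.0851 in lymphH.

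Shares of cells depended on depth, so each cell was thinned to 1000 counts, which left 238 cells in lungL, 222 in lungH and 306 in lymphH. C1s1 was then found in 7.98% (exact 95% interval 4.88% to 12.2%) of lungL cells, 8.11% (4.88% to 12.5%) of lungH cells and 0.327% (0.0083% to 1.81%) of lymphH cells. C1ra was found in 2.10% of lungL and 5.41% of lungH cells and in 0 of 306 lymphH cells, which allows a share of cells with a count of up to 0.98% (3 cells). Cd59a was found in 7.98% of lungL and 1.80% of lungH cells, again with 0 of 306 in lymphH. Without thinning, the shares of C1s1 were 22.1%, 7.77% and 0.195%. LymphH, whose bulk counterpart had 1.2 and 1.36 TPM of C1s1, serves here as the level of near absence.

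Barcodes with 250 genes or fewer also held these transcripts. In lungH they carried C1s1 at 0.865 per 10000 (0.684 to 1.08), an interval that overlaps that of the kept cells, and Cd59a at 0.355 (0.243 to 0.501). In lungL they carried C1s1 at 0.346 (0.226 to 0.506), below the kept cells, and Cd59a at 0.970 (0.760 to 1.22). How much of the signal in kept cells is free RNA was not tested. No more than 4 of the 8 genes were found in any 1 cell. In lungL 60.1% of cells had none, and cells with none had a median of 1076 counts against 8425 for cells with 1.

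**Figure D5:**
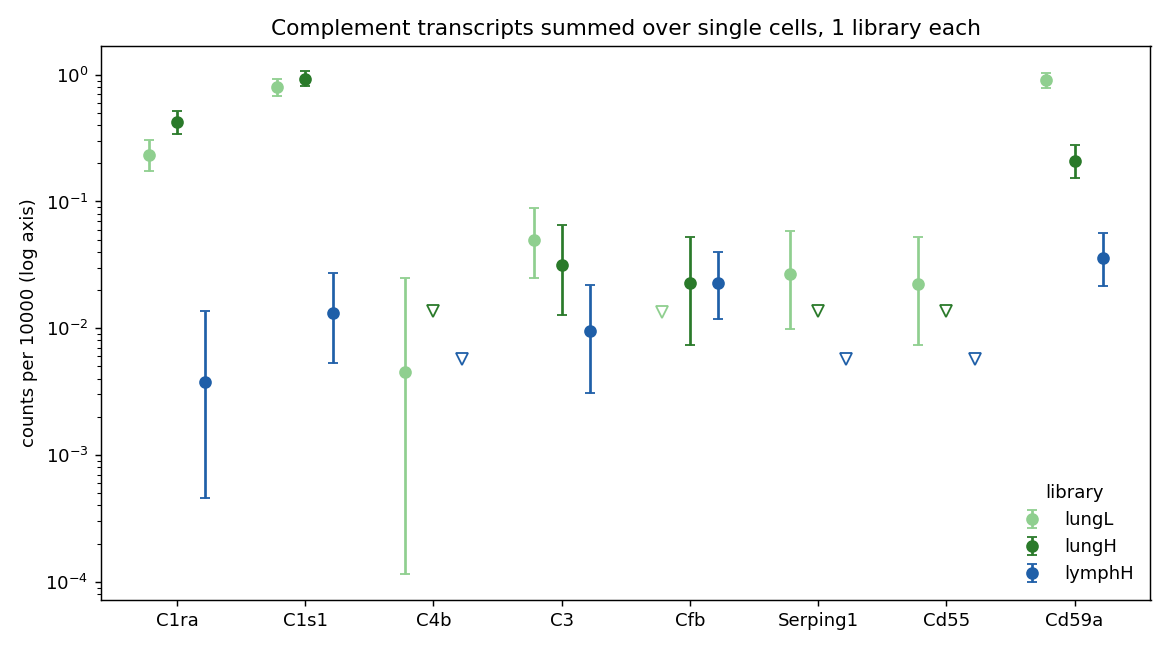
Counts per 10000 of each complement gene summed over the kept cells of lungL, lungH and lymphH, on a log axis, with exact Poisson 95% intervals that cover counting error only. Open triangles mark a count of 0 at the level that 3 counts would give, and C1s1, C1ra and Cd59a stand above the other genes in both lung libraries.

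Other complement genes were also found in single cells. Masp1 had 453 counts in lungL (2.04 per 10000), 1144 in lungH (5.17) and 24 in lymphH (0.0454), and Colec12 had 749 (3.37), 569 (2.57) and 1. Thbd had 906 counts in lungL (4.08 per 10000) and 0 in the other libraries, the bulk order. Clu had 83 counts in lungL (0.374) and 1024 in lungH (4.63), and its bulk levels were 89.8 and 59.6 TPM in lung CD44low against 115 and 90.7 TPM in lung CD44high cells. Fibroblast markers summed to 22.2 per 10000 in lungL, 0.674 in lungH and 0.132 in lymphH. Col1a2 (3192 counts) and Col1a1 (965) gave most of the lungL sum, while Dcn, the leading marker in bulk, had 22 counts and Lum had 0. Epithelial markers summed to 1.62, 4.37 and 10.9 per 10000, and Epcam had 0 counts in lungL, 3 in lungH and 936 in lymphH.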

How the data were processed

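Bulk RNA was sequenced from 14 cell line libraries and single-cell RNA from 3. The authors made bulk libraries with an unstranded SMART-seq2 protocol, aligned them to mm10 with STAR and deposited TPM values estimated by RSEM. For single cells, the authors deposited counts per gene and barcode from a 3' kit, made with kallisto. Their own tests used edgeR and are not used here.

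TPM values were analysed as log2(TPM + 1) by limma (version 3.58.1, run in R version 4.3.3). The fit had 1 mean for each of 7 groups and a moderated spread that follows mean expression (7 residual degrees of freedom). Genes with at least 1 TPM in 2 libraries were kept, which left 15348 of 55450, and p-values were adjusted by Benjamini-Hochberg over all of them for each of 13 comparisons. Positions come from GENCODE vM21, which held every gene identifier. Single-cell counts were summed over cells, with exact Poisson intervals for levels and Clopper-Pearson intervals for shares, in Python 3.11.15 with numpy 2.4.6, pandas 2.3.3 and scipy 1.17.1. Figures were drawn with matplotlib 3.10.9.

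The members and all gene lists were chosen with earlier results of these data known. Named are the 8 members, close copies of them, other complement genes with a group mean of at least 5 TPM or a passed comparison, inducer genes with a passed comparison, and up to 3 similar genes per member. Some genes that meet this rule are not reported here. Chosen outside this rule, after their values were seen, are C1qa, C1qb, C1qc and C8g. The 8 alternatives and the omission of each of 14 libraries are given in the closing section, and limma was tested on simulated data.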

Additional observations from a re-analysis of the deposited data

Results flagged for a closer look

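The CD44 difference in lung departed from that in LN or BM for C3, C1s1 and Cfb, by a test of the difference itself (limma interaction contrasts, Benjamini-Hochberg adjusted over 15348 genes). Over all genes, 7.0% were lower and 3.39% higher against LN, and 5.89% and 2.77% against BM. For C3 the interaction was -4.47 against LN (adjusted p = 0.000674) and -4.00 against BM (adjusted p = 0.00148), and for C1s1 -2.61 (adjusted p = 0.00233) and -2.76 (adjusted p = 0.00177). C3 and C1s1 were higher in CD44high cells of LN and BM and lower in CD44high cells of lung, without overlap of libraries, but within an organ none of these differences passed both the fold and the adjusted p threshold. C1s1 was low in LN and BM, at 0.07 to 3.36 TPM. In single cells, C1s1 was 0.797 per 10000 in lungL and 0.932 in lungH, so it was not lower in lungH. C3 was 0.0495 and 0.0317 per 10000, from 11 and 7 counts. For both genes the intervals of lungL and lungH overlapped. Cfb passed against BM alone, at -2.04 (adjusted p = 0.0231), a call lost under 8 alternatives, in which the difference ran from -2.67 to -1.51. C4b and Serping1 are left out here, since they passed the filter on low values only through lung CD44low cells, which decided these contrasts. Fibroblast markers also fell from lung CD44low to lung CD44high cells, from 4876 and 5309 to 216 and 103 TPM in sum, and their part in these differences was not tested.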

How the results depend on the processing

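No difference of the 8 genes that passed was reversed under the alternatives run. The counts below include C4b, Serping1 and Cd55 also where the filter decided their comparison. With a pseudocount of 0.1, the number of the 8 genes that passed rose from 1 to 2 in LN CD44low, from 1 to 5 in LN CD44high, from 1 to 5 in BM CD44low and from 4 to 7 in BM CD44high cells against MFP, from 2 to 4 between lung CD44high and CD44low cells, and from 0 to 1 between BM and LN. The shares of all genes that passed at that pseudocount were 9.32%, 12.2%, 13.4%, 14.3%, 17.4% and 0.971% in the same order. Without the fold threshold it was 3, 4 and 4 in LN CD44low, LN CD44high and BM CD44low cells, 6 for CD44 in lung, 8 for lung against LN and BM, and 3 for BM against LN, beside 14%, 23.8%, 23.2%, 30.7%, 59.9% and 1.81% of all genes. For CD44 in LN the count went from 0 to 1 (C3) with a filter of at least 5 TPM, with median-ratio scaling and with an unadjusted p, where 0.295%, 0.254% and 0.769% of all genes passed, and in BM from 0 to 1 with an unadjusted p, where 0.801% did. The interaction of Cfb with BM was lost with a pseudocount of 0.1, with no filter and with only the groups compared. The cause was not tested.

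When each library was left out in turn, the counts ranged from 0 to 1 for CD44 in LN, 0 to 1 for CD44 in BM, 2 to 4 for CD44 in lung and 0 to 1 for BM against LN. Against MFP they were 3 to 4 in BM CD44high, 4 to 5 in lung CD44high, 6 in lung CD44low and 1 in each other group. They were 4 to 5 for both interactions and 5 for lung against LN and BM. The calls lost by leaving out a library were the Cfb interaction with BM (5 libraries) and C3 in BM CD44high cells against MFP (2 libraries). The calls of C4b, Serping1 and Cd55 that the filter decided also stood with no filter (31466 genes). The same values at or near 0 decide them there, so this adds no support.

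A fit with the replicate number as a block let C3 pass for CD44 in LN (0 to 1, beside 0.143% of all genes) and changed no other call of the 8 genes. Same-numbered samples did not deviate together (correlations from -0.194 to 0.168, over 0.1 in 3 of 21 pairs of groups). The study states no pairing by number, and low correlations cannot exclude that same-numbered isolates came from the same mouse.

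The share of lungL cells with C1s1 was 3.19% at 500 counts and 22.1% without thinning, and without thinning C1ra was 8.62% and Cd59a 24.4%. In lungH, C1s1 was 3.38% and C1ra 1.27% at 500 counts. As a mean of per-cell values, levels per 10000 were 0.293 for C1ra, 0.370 for Cd59a and 0.0878 for C3 in lungH, and 0.0678 for Cd59a and 0.00102 for C3 in lymphH. In lungH cells with more than 500 genes, Cd59a was 0.139 and C3 0.0121, and over all barcodes of lungL C1s1 was 0.680. Of the 24 most similar genes by Pearson's r, 4 were also named by Spearman's rho.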
